A study of Mus musculus with 87 samples.

Results

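The trophectoderm is the outer epithelium of the blastocyst, the layer that pumps fluid into the cavity and later gives rise to the placenta. The transcript levels of 10 of its genes were followed here, out of 25277 genes counted. They were chosen by name as genes known from this lineage, with earlier results of these data known. They are the transcription factors Cdx2, Eomes, Elf5, Tfap2c, Gata3 and Hand1, the transcription factor inhibitor Id2, the keratins Krt8 and Krt18, and the placental gene Plac1. All 10 had a row in each of the 3 count tables used.

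The study sequenced polyadenylated RNA from androgenetic haploid mouse embryonic stem cells, which hold only chromosomes of paternal origin, and from semi-cloned embryos and animals, made by putting such a cell into an egg in the place of a sperm. Of its 87 libraries, 31 were used here, and the tissues of fetuses and newborns were not. The haploid cells are a cell line labelled AG-haESC with Dnmt genotypes WT (n = 3), TKO (n = 3) and STOP (n = 2). The embryos carried the genotype labels pWT and pIR and were sampled at the 2C stage (n = 4 and n = 4), as morulae (n = 3 and n = 4) and as blastocysts (n = 4 and n = 4). What pIR and STOP stand for, the strain, how many embryos went into a library and whether the libraries of a group came from separate cultures or embryos are not given in the sources used here. Each p-value therefore measures the spread between these libraries, which may be technical. The 11 control columns of the embryo tables are headed O48 with a stage and a number. They were matched to the pWT libraries of that stage and number by elimination, and every pWT level and every comparison with pWT rests on that match.

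In the mouse the trophectoderm is set apart from the inner cell mass when the outer cells of the morula become polarised. Hippo signalling is then low in those cells, so that the cofactors Yap1 and Wwtr1 work with Tead4 to switch on Cdx2 and Gata3. Cdx2, Eomes and Elf5 afterwards keep trophoblast stem cells in their state, and Hand1 drives the formation of trophoblast giant cells. Tfap2c is expressed in trophectoderm and also in pluripotent cells and the germ line. The promoter of Elf5 is known to be methylated in embryonic stem cells and unmethylated in trophoblast stem cells.

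Because the haploid cells differ in the genes for DNA methyltransferases, the bases before a start site are shown for 3 genes on which the results turn, with each CpG, the dinucleotide that these enzymes methylate, in capitals. Cdx2 had the largest fold change among the tested genes of haploid cells, and Elf5 and Plac1 had the largest from morula to blastocyst. The stretches come from RefSeq on GRCm38.p6 and stop where an annotated exon of the gene is first met. The Cdx2 stretch lies at chr5:147307271-147307499 on the minus strand, the Elf5 stretch at chr2:103423818-103424061 on the plus strand, before the second of the gene's starts in that table, and the Plac1 stretch at chrX:53240112-53240360 on the minus strand, before its distal start. The Elf5 stretch lies inside the annotated gene. The window of the first Elf5 start has 0 bases before an exon, so none are shown for it.
Cdx2: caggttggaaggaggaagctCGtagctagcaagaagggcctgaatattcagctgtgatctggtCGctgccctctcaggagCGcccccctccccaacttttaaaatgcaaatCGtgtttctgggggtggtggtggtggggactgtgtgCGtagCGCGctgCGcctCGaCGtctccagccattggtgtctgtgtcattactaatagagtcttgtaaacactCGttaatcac
Elf5: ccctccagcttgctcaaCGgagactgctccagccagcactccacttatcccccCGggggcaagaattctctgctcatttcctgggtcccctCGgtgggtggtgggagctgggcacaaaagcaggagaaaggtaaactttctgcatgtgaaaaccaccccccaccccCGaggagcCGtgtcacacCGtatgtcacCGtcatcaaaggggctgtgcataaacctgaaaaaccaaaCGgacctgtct
Plac1: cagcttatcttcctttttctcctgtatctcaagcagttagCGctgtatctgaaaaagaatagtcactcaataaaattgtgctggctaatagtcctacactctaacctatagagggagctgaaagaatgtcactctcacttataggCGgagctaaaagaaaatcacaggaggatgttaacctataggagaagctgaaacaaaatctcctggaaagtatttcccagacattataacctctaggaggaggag
The Cdx2 stretch holds 11 CpG in 229 bases, the Elf5 stretch 8 in 244 and the Plac1 stretch 2 in 249. Over the full window of 250 bases before and 50 after a start, the 32851 RefSeq promoters have a median of 7 CpG. The windows of Gata3, Id2, Cdx2 and Krt18 hold 22, 21, 18 and 17, that of Eomes 10, that of Krt8 6, those of the Elf5 starts 3 and 10, and those of the Plac1 starts 6 and 3. Tfap2c and Hand1 have no entry in the table. The letters GGAATG, a core bound by TEAD factors, were searched on both strands and stand in 14.7% of all promoters and, among these 8 genes, only in the window of the first Elf5 start. The letters GCCNNNGGC, bound by AP-2 factors such as the Tfap2c protein, stand in 16.6% of all promoters and in the windows of Cdx2, Gata3 and Krt18. These matches describe the letters of the windows and nothing about binding, and methylation was not analysed here.

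On mm10 with the GENCODE M21 annotation, Cdx2 lies at chr5:147300805-147307270, Eomes at chr9:118478212-118486132, Elf5 at chr2:103411688-103450989, Tfap2c at chr2:172549593-172558622 and Gata3 at chr2:9857078-9890034. Krt8 at chr15:101996698-102004482 and Krt18 at chr15:102028180-102032027 are neighbours. Id2 lies at chr12:25093799-25097140, Hand1 at chr11:57828705-57832818 and Plac1 at chrX:53069995-53240111. Values are counts of reads over these whole genes, so no value is tied to one start or exon.

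Library totals ran from 16.8 to 24.5 M (mega) counts in haploid cells, from 10.9 to 24.0 in pWT and 6.1 to 7.5 in pIR 2C embryos, from 7.7 to 17.0 in morulae and from 9.7 to 14.9 in blastocysts. The groups of 2C embryos do not overlap in depth. Levels are given as CPM, the counts of a gene for each M counts in its library. A count of 0 allows a level of up to 0.123 to 0.489 CPM, taken as 3 counts of each library's total and covering counting error only. The labels of the haploid cells were checked on the targeted genes first. Dnmt1 stood at 418 to 425 CPM in WT, 68.8 to 74.0 in TKO and 572 to 601 in STOP libraries, Dnmt3a at 64.4 to 75.0, 10.5 to 11.9 and 54.9 to 56.5, and Dnmt3b at 126 to 149, 21.8 to 26.9 and 122 to 128. In TKO cells they fell by 2.62, 2.65 and 2.54 on the log2 scale (edgeR adjusted p = 6.44e-07, 6.93e-06 and 6.93e-06). The sources used here do not say which exons were deleted. The 8 oocyte markers summed to 2289 to 5130 CPM in 2C embryos, to 6.87 to 27.2 in morulae and to 3.21 to 16.0 in blastocysts, so oocyte transcripts were abundant at the 2C stage. The 8 markers of cumulus cells reached at most 2.55 CPM in any morula or blastocyst, with 6 to 8 of them at 0. The 8 markers of fibroblasts reached at most 9.4 CPM there, with 5 to 8 at 0, and 5.91 to 11.5 CPM in haploid cells, with 2 to 5 at 0. In 2C embryos the cumulus markers summed to 0 to 21.6 CPM, highest in pIR library 2, and the fibroblast markers to 0 to 44.9 CPM, highest in pWT library 3, with 5 to 8 of each list at 0. From there to the morula the fitted levels of Cyp11a1 were lower in both genotypes and those of Cyp19a1 and Postn in pIR (edgeR adjusted p = 0.0217 to 0.0426), and their part in the stage changes was not tested.

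In pWT blastocysts the keratins were the most abundant of these transcripts per length of gene. The mean level per kilobase of exon was 1259 CPM for Krt18, 841 for Krt8, 366 for Id2 and 106 for Gata3, followed by 28.2 for Tfap2c, 10.6 for Eomes, 7.1 for Plac1, 4.84 for Cdx2, 2.24 for Hand1 and 0.828 for Elf5. Krt18 and Krt8 overlap in CPM over these 4 libraries.

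**Figure D1:**
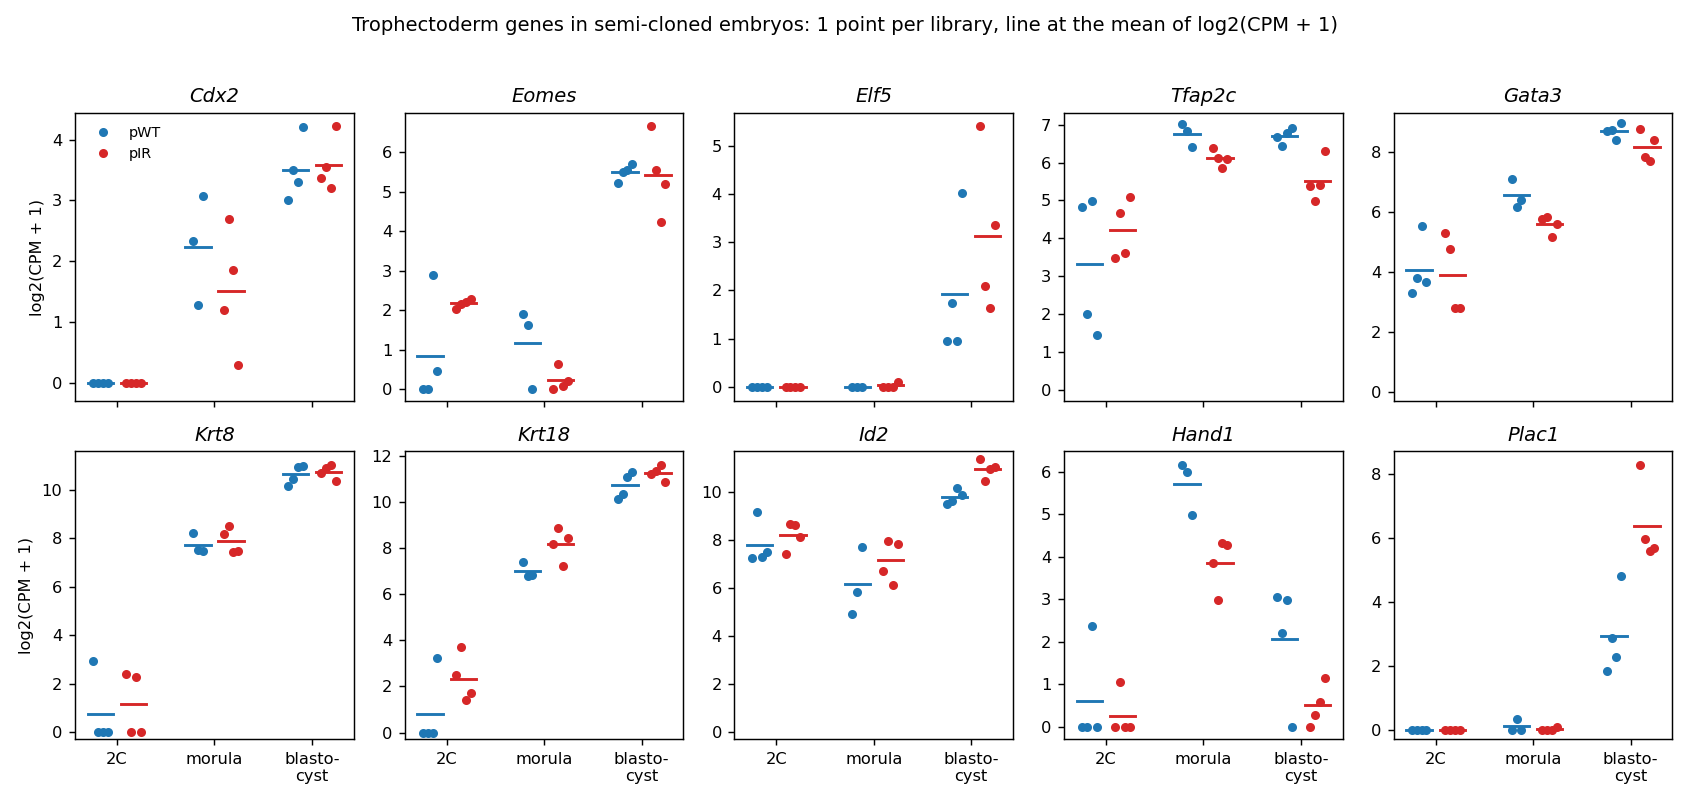
Level of each gene as log2(CPM + 1) in 2C embryos, morulae and blastocysts of the pWT and pIR genotypes, with 1 point per library and a line at the group mean. The group means of Krt8, Krt18 and Gata3 climb over the stages, with pIR 2C embryos and morulae overlapping for Gata3. Elf5 and Plac1 are at or near 0 before the blastocyst, and Hand1 is highest in morulae. Plac1 and Id2 are higher in all 4 pIR blastocysts than in any pWT blastocyst.

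Between the 2C stage and the morula, 6 of the 8 genes that could be tested rose in pWT embryos and 4 of 8 rose in pIR embryos, and 0 fell. The 2C libraries come from a separate count table from that of the morulae and blastocysts. A change of stage and a difference between tables cannot be told apart at this step. Of all 14976 genes tested, 38.5% were called in pWT (17.9% higher and 20.6% lower) and 41.3% in pIR (18.3% higher and 23% lower). A gene was called where the Benjamini-Hochberg adjusted p of edgeR's quasi-likelihood test was under 0.05. The median log2 fold change of the 8 genes was 3.83 in pWT against -0.03 over all genes, and 3.67 in pIR against -0.06. With Cdx2 at its lower bound, the pIR median is 3.08. Without pWT morula 1 or 2 the pWT count was 3 of 8. Elf5 and Plac1 were too low to be tested at these stages. Cdx2, Krt8 and Hand1 could not be tested within 2C embryos and passed the filter on low counts through their morula counts. Their calls could hardly have gone the other way, and they are part of the counts and medians above.

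Cdx2, the homeobox factor that defines the lineage, had no count in any of the 8 libraries of the 2C stage. In pWT morulae it stood at 4.05, 1.43 and 7.38 CPM, and in pIR morulae at 1.3, 5.46, 2.63 and 0.223 CPM. Every morula library held reads, but the pIR libraries spanned more than an order of magnitude. Against a floor of 3 counts over the 2C group, Cdx2 was at least 111-fold higher in pWT and at least 21.6-fold higher in pIR morulae (edgeR adjusted p = 0.00862 and 0.0157). Both bounds pool the counts of a group and cover counting error only, so they do not hold for each library.

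The keratins form the intermediate filaments of the new epithelium. Krt8 stood at 6.61, 0, 0 and 0 CPM in pWT and at 4.32, 0, 3.91 and 0 CPM in pIR 2C embryos, and at 178 to 301 and 171 to 367 CPM in morulae. Krt18 stood at 0, 0, 0 and 8.51 CPM in pWT and at 4.73, 12.2, 1.63 and 2.29 CPM in pIR 2C embryos, and at 111 to 169.6 and 151 to 468 CPM in morulae. In both genotypes the stages did not overlap for either keratin. The log2 fold change was 6.83 ± 1.77 (SE) in pWT and 6.84 ± 1.75 in pIR for Krt8, and 5.54 ± 1.5 and 5.85 ± 1.5 for Krt18 (edgeR adjusted p = 0.00682, 0.00576, 0.0091 and 0.00577).

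Hand1, known for its part in giant cells, was read in 2 of the 8 libraries of the 2C stage, at 4.17 CPM in one pWT and 1.06 CPM in one pIR library. It stood at 70.8, 62.3 and 30.6 CPM in pWT morulae and at 13.4, 6.93, 19.1 and 18.2 CPM in pIR morulae. It rose by 5.23 ± 1.83 on the log2 scale in pWT and 5.6 ± 1.88 in pIR (edgeR adjusted p = 0.0334 and 0.0262). The pWT call was lost without 2C pWT library 1 or 4 or any one pWT morula (adjusted p 0.0533 to 0.0816), and the pIR call without 2C pIR library 1, 3 or 4 (0.0615 to 0.065).

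Tfap2c and Gata3 were already read at the 2C stage. Tfap2c stood at 27.3, 3.02, 30.7 and 1.73 CPM in pWT and 10.3, 24.6, 11.2 and 33.1 CPM in pIR 2C embryos, and reached 129, 114 and 84.2 CPM in pWT and 82.3, 68.6, 57.5 and 67.6 CPM in pIR morulae. Gata3 stood at 9.0, 13.1, 45.5 and 11.8 CPM and 38.3, 26.5, 6.03 and 5.93 CPM in pWT and pIR 2C embryos, and reached 136, 72 and 83.5 CPM and 54.3, 56.6, 34.8 and 47.9 CPM in morulae. Only Gata3 in pIR embryos overlapped between these stages. In pWT Tfap2c rose by 2.42 ± 0.783 and Gata3 by 1.88 ± 0.716 on the log2 scale (edgeR adjusted p = 0.0233 and 0.0475), while in pIR the values were 1.73 ± 0.735 and 1.27 ± 0.672 and were not called (0.0679 and 0.137). The difference between genotypes in this step was not tested. The Tfap2c call was lost without pWT morula 1 or 2 (adjusted p 0.0545 to 0.0658), and the Gata3 call without any one library of the pWT groups other than 2C library 3 (0.0761 to 0.177).

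Id2 and Eomes showed no call at this step. Id2, a helix-loop-helix protein that binds other such factors and keeps them off DNA, was abundant at the 2C stage, at 149, 563, 153 and 180.1 CPM in pWT and 169.9, 403, 385 and 275 CPM in pIR embryos. In morulae it stood at 28.7, 56.4 and 206 CPM and at 102, 246, 67.6 and 227 CPM. The stages overlapped in both genotypes, with a log2 fold change of -1.78 ± 0.723 in pWT and -1.02 ± 0.639 in pIR (edgeR adjusted p = 0.0612 and 0.212). The pWT value passed the threshold without 2C pWT library 1 or 3 or without pWT morula 3 (0.00787 to 0.0487). Eomes, the T-box factor of trophoblast stem cells, stood at 0, 0, 6.37 and 0.368 CPM in pWT and 3.11, 3.44, 3.58 and 3.91 CPM in pIR 2C embryos, and at 2.74, 2.07 and 0 CPM and 0, 0.57, 0.0674 and 0.149 CPM in morulae. All 4 pIR morulae lay below all 4 pIR 2C libraries.

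Among the genes that feed into Cdx2, 5 of 15 Hippo and Notch genes rose and 0 fell in pWT at this step, and 4 rose and 1 fell in pIR. Of all genes, 17.9% were called higher and 20.6% lower in pWT, and 18.3% higher and 23% lower in pIR. Tead4, the factor that Yap1 and Wwtr1 bind, rose by a log2 fold change of 12.78 ± 1.89 in pWT and 4.9 ± 1.25 in pIR (edgeR adjusted p = 0.000181 and 0.0073). The kinase gene Lats2 rose by 10.84 ± 1.46 and 10.62 ± 1.56 (0.000259 and 0.000397), and Yap1 fell by 3.11 ± 0.553 on the log2 scale in pIR (0.000359). Of 18 genes for the blastocoel and for cell junctions, 7 rose and 1 fell in each genotype, with the tight junction gene Cldn4 at 11.87 ± 0.853 and 14.2 ± 0.997 (7.6e-07 and 4.01e-07). Of 14 other trophectoderm and trophoblast genes tested, 5 rose and 1 fell in pWT, and 6 rose and 2 fell in pIR. Several of these fitted folds start from 2C counts of 0 or near it and depend on the prior count of the fit.

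Between morula and blastocyst, 8 of the 10 genes changed in pWT embryos, 7 higher and 1 lower, and all 10 changed in pIR embryos, 8 higher and 2 lower. Of all 13697 genes tested, 24.6% were called in pWT (12.4% higher and 12.2% lower) and 28% in pIR (16.2% higher and 11.8% lower). The median log2 fold change of the 10 genes was 2.78 in pWT and 2.73 in pIR, against 0.16 and 0.17 over all genes. Eomes, Elf5 and Plac1 could not be tested within morulae and passed the filter on low counts through their blastocyst counts. Their calls could hardly have gone the other way, and they are part of these counts and medians. These comparisons share their libraries with the comparisons of genotypes described later.

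Eomes, Elf5 and Plac1 passed from few or no reads to clear expression. Eomes reached 36.2, 44.1, 45.6 and 50.6 CPM in pWT and 99.2, 46.0, 17.8 and 35.7 CPM in pIR blastocysts, and lay above the morula level by 4.52 ± 0.867 and 7.8 ± 0.942 on the log2 scale (edgeR adjusted p = 0.000949 and 1.04e-05). Elf5, the ETS factor of trophoblast stem cells, had no count in any pWT morula and 1 count in 1 pIR morula. It reached 0.94, 2.34, 0.932 and 15.2 CPM in pWT and 41.5, 3.27, 2.11 and 9.24 CPM in pIR blastocysts. That is at least 54.1-fold higher in pWT, against 3 counts over the pWT morulae, and a ratio of 871 in pIR with a 95% counting interval of 156 to 34470.3 (edgeR adjusted p = 0.00469 and 0.00066). Both values pool the counts of a group and leave out the spread between libraries. Of the 208 Elf5 counts in pWT blastocysts, 158 came from library 4, and of the 625 in pIR, 480 came from library 1. Plac1, a gene of the placenta on the X chromosome, had 2 counts in all pWT and 1 count in all pIR morulae, and stood at 2.55, 6.24, 3.83 and 27.0 CPM in pWT and 311, 62.1, 46.8 and 50.7 CPM in pIR blastocysts. The ratio to morulae was 166 in pWT (45.8 to 1379) and 7229 in pIR (1297 to 285569), intervals that cover counting error only (edgeR adjusted p = 0.000697 and 2.25e-06). In all blastocysts these genes lay above all morulae of the same genotype.

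The keratins, Gata3 and Id2 rose on top of levels that were already substantial. Krt8 reached 1153 to 2060 CPM in pWT and 1322 to 2105 CPM in pIR blastocysts, a log2 fold change of 2.64 ± 0.319 and 2.63 ± 0.285. Krt18 reached 1139.7 to 2576 CPM and 1889 to 3152 CPM, a log2 fold change of 3.53 ± 0.384 and 2.83 ± 0.33. Gata3, the zinc finger factor that works beside Cdx2, reached 340 to 508 CPM and 207 to 434 CPM, a log2 fold change of 1.84 ± 0.258 and 2.43 ± 0.237. For Id2 the log2 fold change was 2.92 ± 0.557 in pWT and 3.43 ± 0.507 in pIR. Over these 4 genes and both genotypes, edgeR's adjusted p ran from 1.39e-06 to 0.000901, and no morula overlapped a blastocyst of its genotype.

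Hand1 went the other way. It stood at 7.32, 3.64, 6.94 and 0 CPM in pWT and at 0, 0.204, 0.502 and 1.2 CPM in pIR blastocysts, below all morulae of the same genotype. It fell by 3.84 ± 0.886 on the log2 scale in pWT and by 5.1 ± 0.976 in pIR (edgeR adjusted p = 0.00406 and 0.000811). Hand1 was thus a transcript of morulae in these libraries, while Elf5 and Plac1 were transcripts of blastocysts.

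Cdx2 and Tfap2c were called at this step in pIR embryos alone. Cdx2 stood at 7.05, 10.3, 8.9 and 17.5 CPM in pWT and 9.33, 10.7, 8.24 and 17.7 CPM in pIR blastocysts. It rose by a log2 fold change of 2.06 ± 0.735 in pIR (edgeR adjusted p = 0.0437) and differed from morulae by 1.05 ± 0.783 in pWT (0.351), where the stages overlapped. Tfap2c stood at 101, 86, 108 and 119 CPM in pWT and 40.9, 30.8, 41.4 and 78.2 CPM in pIR blastocysts. It fell by 0.73 ± 0.245 on the log2 scale in pIR (0.0318), with 1 blastocyst within the range of the morulae, and differed by -0.34 ± 0.261 in pWT (0.372). Both pIR calls were near the threshold. Cdx2 lost it without any one pIR library other than morula 2 (0.0564 to 0.135), and Tfap2c without pIR morula 1, 2 or 4 or pIR blastocyst 1, 2 or 3 (0.0507 to 0.101). Whether the pIR effect differed between morula and blastocyst was tested as an interaction. It was called for 0 of the 10 genes and for 0% of 13697 genes by edgeR, although 1101 had an unadjusted p under 0.05, and edgeR's lowest adjusted p among the 10 was 0.516. DESeq2 called 72 of all genes.

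The lists of related genes were counted at the same step. Of all genes, 12.4% were called higher and 12.2% lower in pWT, and 16.2% higher and 11.8% lower in pIR. Of 15 other trophectoderm and trophoblast genes tested, 10 rose and 1 fell in pWT, and 11 rose and 1 fell in pIR. Dppa1 rose by a log2 fold change of 4.78 ± 0.463 and 4.86 ± 0.408, and Tfap2a, the relative of Tfap2c, by 6.23 ± 0.944 and 5.46 ± 0.801 (edgeR adjusted p = 1.57e-06, 3.61e-07, 0.000114 and 7.15e-05). Of the 18 blastocoel and junction genes, 7 rose and 1 fell in pWT, and 10 rose and 2 fell in pIR. Ezr, for the ezrin of microvilli, rose by 4.27 ± 0.458 and 4.01 ± 0.402, and Atp1b1, a subunit of the sodium pump that fills the cavity, by 1.62 ± 0.205 and 1.84 ± 0.187 (4.3e-06, 1.64e-06, 2.38e-05 and 1.81e-06). Of 14 Hippo and Notch genes, 3 rose and 2 fell in pWT, and 3 rose and 1 fell in pIR. The medians of this list were 0.26 and 0.14, against 0.16 and 0.17 over all genes. Tead2 rose by 2.62 ± 0.657 and 2.94 ± 0.605 (0.00734 and 0.00146), Yap1 rose by 1.47 ± 0.36 in pIR (0.00528) and Wwtr1 fell by 0.71 ± 0.203 on the log2 scale in pWT (0.0167). Tead1 rose by 2.54 ± 0.348 and 2.35 ± 0.309 and Tead4 fell by 0.79 ± 0.24 and 0.62 ± 0.225 on the log2 scale (4.71e-05, 2.47e-05, 0.0228 and 0.047).

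The comparison of pIR with pWT embryos asks how the genotype labelled pIR changed each stage. In 2C embryos 0 of the 5 genes that could be tested were called. The log2 fold changes were 0.92 ± 1.88 for Eomes, 1.19 ± 2.11 for Krt18 and 0.26 ± 0.959 for Tfap2c. They were -0.15 ± 0.863 for Gata3 and 0.19 ± 0.489 for Id2. With SEs of this size, the lack of calls does not show that the genotypes were alike. Over all 11076 genes edgeR called 0%, although 235 had an unadjusted p under 0.05, and DESeq2 called 35. The values of Id2, Tfap2c, Gata3 and the keratins given before overlapped between the genotypes, and in Eomes the pIR libraries all held reads while 2 of 4 pWT libraries held none.

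In morulae 0 of 7 genes were called, against 0.136% of the 11773 genes tested by edgeR. An unadjusted p under 0.05 was found for 1467 genes, and DESeq2 called 403. The median log2 fold change of the 7 genes was -0.5 and that of all genes -0.01. All 4 pIR libraries lay below all 3 pWT libraries for Tfap2c, Gata3 and Hand1. How many of all genes separate in this way was not counted, so this is a description. Hand1 differed by a log2 fold change of -1.76 ± 0.421, Gata3 by -0.85 ± 0.296 and Tfap2c by -0.5 ± 0.244 (edgeR adjusted p = 0.168, 0.282 and 0.425). Cdx2, with its wide spread in pIR morulae, differed by -0.7 ± 1.12 (0.86). In pIR morula 1, one of the lower Cdx2 libraries, the genes of chromosome 5, on which Cdx2 lies, were shifted as a whole by a median of -0.92 on the log2 scale against the pWT mean, and the other pIR morulae by -0.05 to 0. Without that library the Cdx2 value was -0.49, and other single libraries moved it further, to -1.51 without pIR morula 2, -0.32 without pIR morula 4 and -0.04 without pWT morula 3.

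The keratins and Id2 had positive values in pIR morulae and were not called by edgeR. Krt18 stood at 169.6, 111 and 112 CPM in pWT and at 292, 468, 151 and 346 CPM in pIR morulae, a difference of 1.43 ± 0.339 on the log2 scale (edgeR adjusted p = 0.162). Of the pIR libraries, 3 lay above all pWT libraries. DESeq2 called it (adjusted p = 0.00513), and so did edgeR with no filter on low counts (0.0358) and in one fit with the blastocysts (0.0495). DESeq2 also called Hand1 lower (0.0062). Krt8 differed by 0.35 and Id2 by 0.86 (edgeR adjusted p = 0.692 and 0.613), and Id2 by 2.07 without pWT morula 3 (0.15).

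In blastocysts 3 of the 10 genes were called, Id2 and Plac1 higher and Tfap2c lower in pIR. Of the 12056 genes tested, 10.6% were called, 6.74% higher and 3.9% lower. The median log2 fold change was 0.31 for the 10 genes and -0.07 for all genes. Without pWT blastocyst 2, 1 of the 10 was called. In these whole blastocysts fewer cells of a type and less RNA per cell cannot be told apart.

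**Figure D2:**
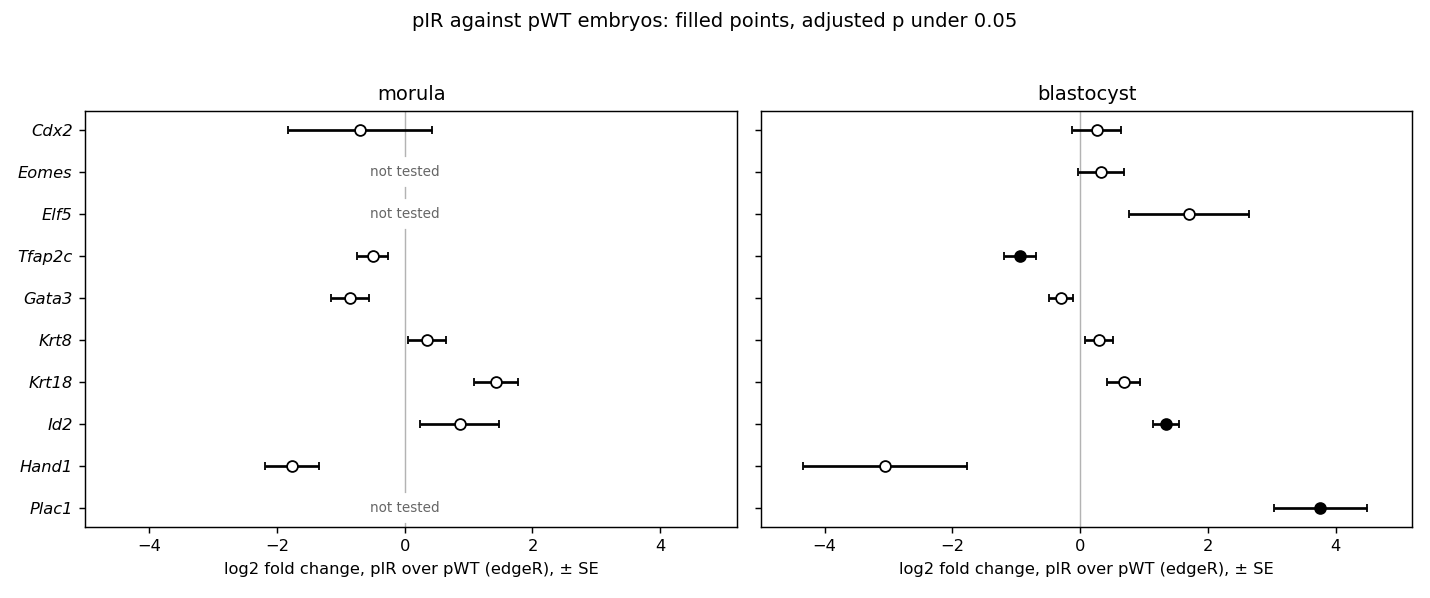
Log2 fold change of each gene in pIR over pWT embryos in morulae and blastocysts, with bars of 1 SE and filled points for an edgeR adjusted p under 0.05. Filled points stand at Plac1, Id2 and Tfap2c in blastocysts, and no point is filled in morulae. Genes too low to be tested have no point.

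Plac1 had the largest change. Its 4 pIR blastocysts, at 311, 62.1, 46.8 and 50.7 CPM, all lay above the 4 pWT blastocysts at 2.55, 6.24, 3.83 and 27.0 CPM. Each group has one library well above its others, pIR blastocyst 1 and pWT blastocyst 4. The fitted difference was 13.5-fold, 3.76 ± 0.732 on the log2 scale (edgeR adjusted p = 0.0114). Without pIR library 1 it was 2.69 (0.0151) and without pWT library 4 it was 4.93 (0.00447), and without pWT library 2 the adjusted p was 0.0503. DESeq2 gave no adjusted p for Plac1 in this comparison. The 6 other alternatives kept the call, at 3.44 to 3.77. The genes of the X chromosome were shifted as a whole by a median of 0.2, 0.08, 0.26 and 0.28 on the log2 scale in the pIR blastocysts and by -0.03 to 0.05 in the pWT blastocysts. Their part in the Plac1 difference was not tested.

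Id2 was higher in each pIR blastocyst, at 2599, 1371, 1978 and 2085 CPM, than in any pWT blastocyst, at 714, 778, 1139.8 and 938 CPM. The difference was 2.53-fold, 1.34 ± 0.2 on the log2 scale (edgeR adjusted p = 0.00631), and it stayed called without any 1 library. With morulae and blastocysts in one fit, the adjusted p was 0.117 at a log2 fold change of 1.35. Of 9 tested genes of the Id family and of the BMP pathway, whose targets Id genes are, 0 were called, with Id1 at 0.05 and Id3 at -0.48 (0.979 and 0.14).

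Tfap2c was lower in pIR blastocysts, at 40.9, 30.8, 41.4 and 78.2 CPM against 101, 86, 108 and 119 CPM, and the groups did not overlap. The difference was 1.92-fold, -0.94 ± 0.248 on the log2 scale (edgeR adjusted p = 0.0293). The call was lost without any one of the 4 pWT libraries or without pIR library 2 or 3 (0.0523 to 0.0998).

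The other transcription factors of the trophectoderm were not called in blastocysts. Cdx2 differed by a log2 fold change of 0.26, Eomes by 0.33 and Gata3 by -0.3, with pIR and pWT libraries overlapping in each (edgeR adjusted p = 0.696, 0.592 and 0.331). For Eomes the sign turned to -0.2 without pIR blastocyst 1, which held 99.2 CPM. Elf5 differed by 1.7 ± 0.939 (0.256). Without pWT library 4, the one at 15.2 CPM, it was called at 3.41 (0.0464), and without pIR library 1, the one at 41.5 CPM, it stood at 0.22 (0.901). Elf5 was highest in pIR blastocyst 1 and, among the pWT blastocysts, in library 4, the same libraries in which Plac1 was highest. Hand1 was low in both genotypes and differed by -3.06 ± 1.28 (0.132).

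Krt8 and Krt18 were near their highest levels in both genotypes. Krt8 stood at 1153, 1406, 1969 and 2060 CPM in pWT and 1664, 1926, 2105 and 1322 CPM in pIR blastocysts, and Krt18 at 1139.7, 1311, 2210.1 and 2576 CPM and at 2409, 2650.3, 3152 and 1889 CPM. The groups overlapped for both genes. The log2 fold change was 0.29 for Krt8 and 0.68 ± 0.256 for Krt18 (edgeR adjusted p = 0.415 and 0.095), and Krt18 was called by DESeq2 (0.0425).

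The keratin proteins pair as partners in one filament, so the ratio of Krt18 to Krt8 counts was also taken within each library. This ratio was chosen after the values were seen, and as a ratio within a library it does not depend on depth. In morulae it was 0.563, 0.608 and 0.631 in pWT and 1.01, 1.28, 0.885 and 1.96 in pIR. In blastocysts it was 0.989, 0.932, 1.12 and 1.25 in pWT and 1.45, 1.38, 1.5 and 1.43 in pIR. All pIR libraries lay above all pWT libraries at both stages. The mean of the log2 ratio differed by 1.03 in morulae and 0.43 in blastocysts. Since the separation prompted the choice of the ratio, these differences are a description with no test, and the ratio does not show which keratin differed. In haploid cells it was 0.451 to 0.65 in WT, 2.07, 1.59 and 0.724 in TKO and 1.34 and 1.31 in STOP.

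**Figure D3:**
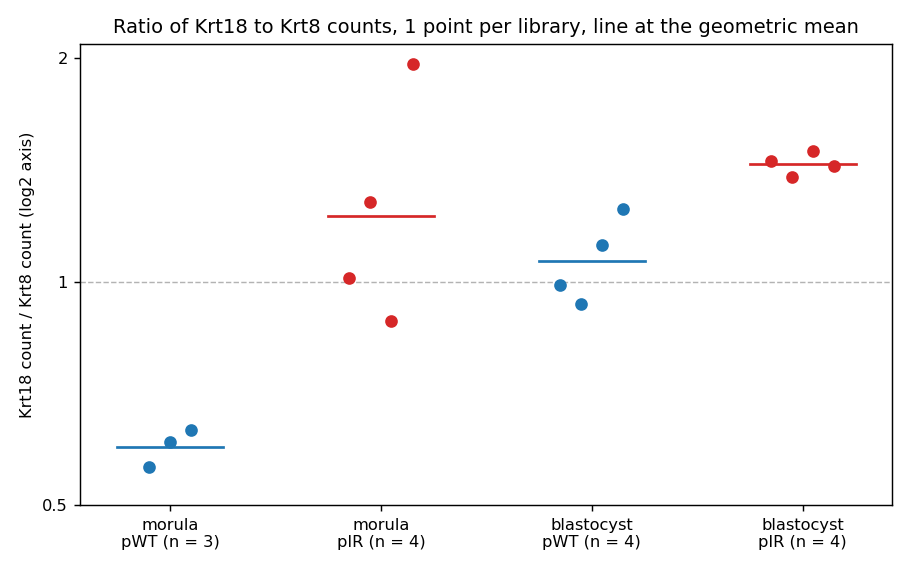
Ratio of Krt18 to Krt8 counts on a log2 axis in pWT and pIR morulae and blastocysts, with 1 point per library and a line at the geometric mean. The pIR points, at 0.885 to 1.96 in morulae and 1.38 to 1.5 in blastocysts, lie above the pWT points, at 0.563 to 0.631 and 0.932 to 1.25.

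Around these genes, the lists of related genes were mixed in pIR blastocysts. Of all genes, 6.74% were called higher and 3.9% lower, and their median log2 fold change was -0.07. Of 13 Hippo and Notch genes 2 fell and 0 rose, with Lats2 at -0.96 ± 0.258 and Tead2 at -1.06 ± 0.316 (edgeR adjusted p = 0.0312 and 0.0458), and the median of the list was -0.52. Of 14 other trophectoderm and trophoblast genes 2 rose and 0 fell, with Dppa1 at 0.87 ± 0.204 (0.0197). Of 18 blastocoel and junction genes, the claudins Cldn4 and Cldn7 rose by 1.5 ± 0.211 and 0.7 ± 0.167 (0.00498 and 0.0203), and the polarity kinase gene Prkci and the plakoglobin gene Jup fell by 0.73 ± 0.194 and 0.94 ± 0.277 on the log2 scale (0.0295 and 0.0447). Of the 12 inner cell mass and epiblast markers, 4 fell and 1 rose. Tcf15 fell by 3.55 ± 0.411, Klf2 by 1.58 ± 0.348 and Esrrb by 1.36 ± 0.312 on the log2 scale, while Utf1 rose by 1.14 ± 0.243 (0.00129, 0.0157, 0.0187 and 0.0135). The summed level of those 12 markers was 910.4 to 1129 CPM in pWT and 705 to 918 CPM in pIR blastocysts, with none of them at 0 in any library. The 10 primitive endoderm markers summed to 577 to 847 CPM and 518 to 773 CPM, with 1 of 9 tested called, Dab2 at 0.71 ± 0.2 (0.0381). The part of these other cell types in the differences of Plac1, Id2 and Tfap2c was not tested. In morulae 0 genes of any of these lists were called by edgeR.

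In haploid cells the 10 genes were low apart from Tfap2c. Elf5, Hand1 and Plac1 had 0 to 4, 0 to 3 and 0 to 12 counts per library and were too low to be tested, so the comparisons of genotypes cover 7 genes. The 12 inner cell mass and epiblast markers summed to 4408 to 6109 CPM in these cells with none at 0, so the defining markers of embryonic stem cells were present. Against WT, 1 of the 12 rose and 2 fell in TKO, and 1 rose and 7 fell in STOP. Their median log2 fold changes were -0.34 and -0.57. Of 8 primitive endoderm markers tested, 3 rose and 1 fell in each. The shares of all genes called are given below. The part of these changes in those of the 10 genes was not tested. TKO and STOP were both compared with the same 3 WT libraries.

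**Figure D4:**
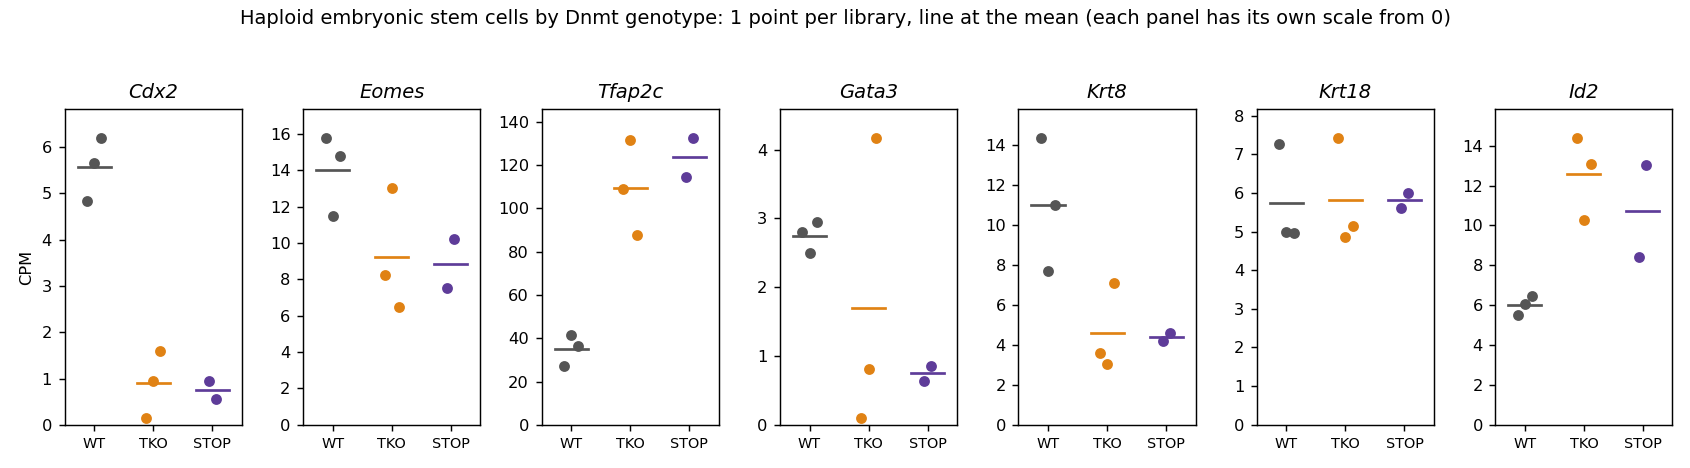
CPM of the 7 tested genes in haploid embryonic stem cells of the WT, TKO and STOP genotypes, with 1 point per library and a line at the mean, and a separate scale from 0 in each panel. Tfap2c stands at 27.4 to 41.5 CPM in WT and at 87.8 to 133 CPM in TKO and STOP, and Cdx2 at 4.83 to 6.2 CPM in WT and 0.152 to 1.59 CPM in TKO and STOP.

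In TKO cells 4 of the 7 genes were called, 2 higher and 2 lower, against 14.6% of the 14959 genes tested (9.83% higher and 4.72% lower). In STOP cells 3 of 7 were called, 1 higher and 2 lower, against 23.1% (13.8% higher and 9.37% lower). The median log2 fold change of the 7 genes was -0.66 in TKO and -0.76 in STOP, and 0.01 over all genes in both. Without any one WT library 1 gene was called in TKO, and without any one of the WT and STOP libraries 1 was called in STOP. Between STOP and TKO 0 of 7 were called, against 0.0401% of all genes, and 439 genes had an unadjusted p under 0.05.

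Tfap2c stood at 27.4, 41.5 and 36.4 CPM in WT, 109, 131 and 87.8 CPM in TKO and 115 and 133 CPM in STOP cells. All TKO and STOP libraries lay above all WT libraries. It was 3.01-fold higher in TKO, 1.59 ± 0.171, and 3.27-fold higher in STOP, 1.71 ± 0.185 on the log2 scale (edgeR adjusted p = 0.00164 and 0.00195). The sign was opposite to that of pIR against pWT blastocysts.

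Cdx2 stood at 4.83, 5.66 and 6.2 CPM in WT, 0.152, 0.95 and 1.59 CPM in TKO and 0.954 and 0.555 CPM in STOP cells. The TKO and STOP libraries were all below the WT libraries. It was 6.15-fold lower in TKO, -2.62 ± 0.59, and 7.89-fold lower in STOP, -2.98 ± 0.716 on the log2 scale (edgeR adjusted p = 0.0226 and 0.023). The TKO call was lost without any one WT library or without TKO library 2 (0.0731 to 0.0909), and the STOP call without any one of its 5 libraries (0.061 to 0.189).

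Krt8 and Id2 changed in TKO cells. Krt8 stood at 14.4, 7.69 and 11 CPM in WT, 3.59, 3.04 and 7.12 CPM in TKO and 4.19 and 4.59 CPM in STOP cells, a log2 fold change of -1.28 ± 0.37 in TKO and -1.42 ± 0.429 in STOP (edgeR adjusted p = 0.0492 and 0.0434). Id2 stood at 5.48, 6.04 and 6.44 CPM in WT, 14.4, 10.3 and 13.1 CPM in TKO and 8.43 and 13 CPM in STOP cells, a log2 fold change of 1.02 ± 0.214 in TKO and 0.74 ± 0.235 in STOP (0.017 and 0.0511). The TKO and STOP libraries did not overlap the WT libraries for either gene. The Krt8 call was lost in TKO without any one WT library or TKO library 1 or 2 (0.0702 to 0.175) and in STOP without any one of its 5 libraries (0.0586 to 0.211). The Id2 call was lost in TKO without any one WT library (0.0655 to 0.0843).

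Eomes, Gata3 and Krt18 were not called in TKO or STOP cells. Eomes stood at 15.8, 11.5 and 14.8 CPM in WT, 8.23, 13 and 6.5 CPM in TKO and 7.53 and 10.2 CPM in STOP cells, with values of -0.66 and -0.76 (edgeR adjusted p = 0.115 and 0.0853). TKO library 2 overlapped WT, and without it the TKO value was called (-0.97, 0.0491). Gata3 stood at 2.8, 2.5 and 2.95 CPM in WT, 0.101, 0.808 and 4.17 CPM in TKO and 0.636 and 0.858 CPM in STOP cells, with values of -0.67 and -1.97 ± 1.06 (0.619 and 0.193). TKO library 3 lay above all WT libraries while the other 2 lay below them, and without it Gata3 was called lower (-2.64, 0.00174). Krt18, at 4.85 to 7.42 CPM, overlapped in all 3 genotypes. TKO library 3 also stood apart on the X chromosome, whose genes were shifted by a median of -0.06 on the log2 scale there and by -0.8 and -0.55 in TKO libraries 1 and 2 and -0.58 and -0.52 in STOP.

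The related lists changed in both directions in TKO and STOP cells. Of all genes, 14.6% were called in TKO (9.83% higher and 4.72% lower). In STOP 23.1% were called (13.8% higher and 9.37% lower). Of 18 blastocoel and junction genes 7 rose and 0 fell in TKO, and 6 rose and 2 fell in STOP, with the desmoplakin gene Dsp at 2.85 ± 0.323 and 3.08 ± 0.342 and Cldn7 at 2.38 ± 0.506 and 2.64 ± 0.539 (edgeR adjusted p = 0.00197, 0.00223, 0.0183 and 0.0143). Of 14 other trophectoderm and trophoblast genes 2 rose and 2 fell in TKO, and 4 rose and 2 fell in STOP. Ascl2, a factor of the later placenta, rose by 2.06 ± 0.412 and 1.99 ± 0.445 (0.0145 and 0.0183), and the imprinted gene Peg10 fell by 2.94 ± 0.543 on the log2 scale in TKO (0.0105). Of 15 Hippo and Notch genes 3 rose and 1 fell in TKO, and 3 rose and 3 fell in STOP, with Notch1 at 1.1 ± 0.122 and 1.21 ± 0.133 (0.00184 and 0.00221). Of 12 genes of the Id family and BMP pathway 0 rose and 2 fell in TKO, and 1 rose and 5 fell in STOP, with Bmp4 at -1.93 ± 0.358 and -3.13 ± 0.453 (0.0105 and 0.00538). Id2 rose in TKO cells, while the called genes of this list, Bmp4 and Smad5, fell there.

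The genes whose levels followed each member most closely over the 23 embryo libraries were taken by Pearson's r of log2(CPM + 1) among 10286 genes. Libraries of one stage resemble each other and differ in depth, so r is a description. For Cdx2 the closest were the desmosome gene Dsg2 (r = 0.97), Tinagl1 (0.963) and Retsat (0.954). For Krt8 they were 2610528J11Rik (0.987), Stard10 (0.987) and Ubr1 (0.985), and for Krt18 Tagln2 (0.985), Anxa2 (0.978) and Ndufb9 (0.974). Elf5 was followed by BC051665 (0.948), Plac1 (0.936) and Prss32 (0.908), and Plac1 by BC051665 (0.943), Nxf7 (0.943) and Slc15a2 (0.935), so these members share their closest gene. Eomes was followed by the sodium pump gene Atp1b1 (0.948), Gata3 by Map3k12 (0.954), and Tfap2c by Cad (0.935) and the Hippo cofactor gene Wwtr1 (0.934). Id2 (0.9 with Pnkd) and Hand1 (0.874 with Gpd1l) had the least close neighbours.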

How the data were processed

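The deposited values are raw read counts per gene, per the labels, made with Trim Galore 0.6.6, HISAT2 2.1.0, mm10 and featureCounts 1.6.4, per the submitters' processing notes, which also name DESeq2. Whether counting used the strand, and how it treated reads with several map positions, is not stated. The protocol describes a poly(A) kit and a Smart-Seq2 type kit, and the sources used here do not say which library had which. The members and the other gene lists were chosen with earlier results of these data known. Each comparison used edgeR 4.0.16 in R 4.3.3, by its quasi-likelihood test on TMM-scaled counts after filterByExpr (minimum count 10), with Benjamini-Hochberg adjustment over all genes tested. Genotypes of embryos were fitted within a stage, stage changes with 4 groups and haploid cells with 3 genotypes in a fit. The SE is the absolute log2 fold change over the root of the F statistic. CPM use library totals, so their ratio can differ from the fitted fold. Statements that groups do not overlap are descriptions, since the share of all genes that separate so was not counted. Of the other lists, called genes could be named, at most 4 with the smallest p, and 1 such gene is not reported here. Closest genes needed a mean of at least 5 CPM. No library was counted as a copy of another, the smallest chi-square per degree of freedom within a group being 4.17. The procedure was tested on simulated data. Alternatives were the test of DESeq2 1.42.0, its scaling inside edgeR, no filter, other sets of libraries, a replicate block and each library left out.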

Additional observations from a re-analysis of the deposited data

Results flagged for a closer look

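In 12 of 44 groups of 4 embryo libraries, 1 library's CPM of a member stood far above the other 3, with a gap to the nearest library that took up most of the group's range (Dixon's test). The test's rate of about 1 in 20 by chance assumes normal values and independent groups. These CPM were not shown to be normal, all 12 libraries stood at the high end, and the groups share libraries. That rate is therefore no measure here, and the flags are a description. In 6 of the 12 the other 3 libraries had no read, so that any read sets the library apart. At the 2C stage the pWT libraries concerned were library 1 for Krt8 (6.61 against 0), library 2 for Id2 (563 against 149 to 180.1), library 3 for Eomes (6.37 against 0 to 0.368), Gata3 (45.5 against 9.0 to 13.1) and Hand1 (4.17 against 0), and library 4 for Krt18 (8.51 against 0). In 2C pIR embryos it was library 2 for Hand1 (1.06 against 0). Library 3 of the pWT 2C embryos, which holds 3 of these values, also had the genes of chromosome 5 shifted by a median of 0.76 on the log2 scale. The genes of those values, Eomes, Gata3 and Hand1, lie on chromosomes 9, 2 and 11. Among pIR morulae, library 4 held the only read of Elf5 and the only read of Plac1 (0.0743 CPM each), which is under the 3 counts taken as the floor. Among blastocysts, pWT library 4 was highest for both Elf5 (15.2 against 0.932 to 2.34) and Plac1 (27.0 against 2.55 to 6.24), and pIR library 1 for Plac1 (311 against 46.8 to 62.1).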

How the results depend on the processing

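Of 63 fold changes of members followed, 38 were called. With 1 library left out, 449 of 450 values kept their sign, 58 of 273 calls were lost and 6 were gained. Under the other alternatives 438 of 439 kept their sign, 28 of 264 calls were lost and 20 were gained. The sign turned for Eomes in blastocysts (-0.2 without pIR blastocyst 1, in a range up to 0.6 over the libraries left out) and for Krt8 in blastocysts (-0.05 with a trend on exon length taken out). A total of 19 calls held in every alternative, among them Tfap2c in TKO and STOP cells and Eomes, Gata3, Krt8, Krt18, Id2 and Hand1 between morula and blastocyst in both genotypes. The 19 also include Elf5 and Plac1 at that step in pIR, and Krt8 from 2C to morula. The calls of Eomes, Elf5 and Plac1 at that step, and of Krt8 from 2C, could hardly have gone the other way. That these held is no support for them.

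The number of called members in pIR morulae was 0, and it was 2 by DESeq2 and 1 with no filter or with blastocysts in the fit. In STOP cells it was 3, against 5 by DESeq2, 6 with only these genotypes in the fit and 1 without any one library. Between 2C and morula in pWT it was 6, against 3 with a GC trend taken out, 2 with only these groups in the fit, and 3 to 7 with 1 library left out. Leaving out 1 library gave 1 to 3 in blastocysts (1 without pWT 2) and 1 to 5 in TKO cells (1 without any WT library). The GC and length trends were added after seeing the data. The cause of these changes was not tested.

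Replicate numbers were not taken as pairs, since in no comparison with 3 or more pairs was every correlation of deviations above 0.1. Between WT and STOP cells, with 2 pairs, the correlations were 0.27 to 0.34. There all 4 libraries went best with their own number. With the replicate block in edgeR, 2 members were called between 2C and morula in pWT. Krt18 in blastocysts (0.73, adjusted p = 0.0492) and Tfap2c between 2C and morula in pIR (1.87, 0.0227) passed. Krt8 in STOP cells lost its call (-1.18, 0.0641). So did Cdx2 in pIR from 2C to morula and from morula to blastocyst, and Elf5 and Plac1 from morula to blastocyst in pWT.

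The count of all genes called moved most. Against edgeR, DESeq2 called 403 in place of 16 in morulae (224 higher and 179 lower in place of 5 and 11), 2276 in place of 1282 in blastocysts, 35 in place of 0 in 2C embryos and 72 in place of 0 for the interaction. In morulae it was 58 with no filter, 5 and 6 with the GC and length trends taken out, 2 with the block and 218 with blastocysts in the fit, where blastocysts gave 584. With only the groups compared in the fit, TKO gave 1291 in place of 2177 and STOP 8133 in place of 3463. The block gave 1963 in place of 5772 between 2C and morula and 2026 in place of 3364 between morula and blastocyst in pWT. With 1 library left out, all-gene counts ran from 0 to 8 in morulae, 229 to 1520 in blastocysts, 574 to 6968 in TKO and 124 to 1228 in STOP cells. Another scaling moved the median of all genes by at most 0.06 in size. Depth limits Elf5 and Plac1 in haploid cells and before the blastocyst, and Hand1 in haploid cells.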
